A study of Mus musculus with 6 samples.

Results

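Oxidative phosphorylation is carried out by 5 protein complexes of the inner mitochondrial membrane, and 89 nuclear genes of this machinery were followed here among 19938 genes measured on 6 arrays. Members were the genes whose array annotation symbol begins with Nduf followed by a, b, c, s or v, with Uqcr, with Cox followed by a digit from 4 to 8, or with Atp5, together with Sdha, Sdhb, Sdhc and Sdhd. The rule used no measured value. It found 43 genes of complex I, 4 of complex II, 8 of complex III, 17 of complex IV and 17 of complex V. Of these, 80 encode subunits, 7 are the complex I assembly factors Ndufaf1 to Ndufaf7, and Ndufa4l2 and Cox7a2l are relatives of subunits.

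The study compared mouse pre-B cells of the FvB/N strain that had been transformed by BCR-ABL1, the fusion kinase of Philadelphia chromosome-positive leukaemia. All cells carried floxed alleles of both SPRY1 and SPRY2, which encode Sprouty feedback inhibitors of receptor and RAS-ERK signalling. Control cells (ERT, 3 arrays) had been transduced with PMIP-ERT2 and the other cells (CRE, 3 arrays) with PMIP-CRE-ERT2, which carries a recombinase that tamoxifen activates. Both groups had 4OH-tamoxifen at 0.5 µM for 2 days, and RNA was taken from cells resistant to puromycin. No group with active Cre and unfloxed alleles was analysed here, so effects of Cre and of Sprouty loss cannot be told apart, and the labels leave unsaid how many cultures or transformed lines the arrays represent.

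In this machinery, complex I (NADH dehydrogenase) and complex II (succinate dehydrogenase) pass electrons from NADH and succinate to ubiquinone, complex III passes them to cytochrome c, and complex IV (cytochrome c oxidase) passes them to oxygen. Complexes I, III and IV pump protons, and complex V (ATP synthase) uses the proton gradient to make ATP. Most subunits are encoded in the nucleus, a few in the mitochondrial genome, and each complex needs assembly factors that are not part of the finished enzyme. Leukaemic B cell precursors use both glycolysis and respiration. The transcription factors NRF1, GABP and YY1 are known activators of many nuclear respiratory genes.

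Promoter windows from RefSeq (build GRCm38.p6), running from 250 bases before to 50 bases after the annotated start, were matched to 73 of the 89 members. The NRF1 core was searched on both strands as GCGCA and GCGC with 1 base of any kind between them. It was found in the windows of 18 of the 73 members (24.7%), against 1225 of 15614 measured genes with a window (7.85%). Stretches upstream of 6 members are printed as examples. Ndufaf1, Ndufb6 and Ndufaf4 are the members called lower below, and Ndufs6, Atp5h and Sdha were not called. Ndufaf4 (chr4:24897960-24898082, plus strand), Ndufs6 (chr13:73328483-73328602, minus strand) and Atp5h (chr11:115419920-115420070, minus strand) hold 1 match each, and Sdha (chr13:74350241-74350360, minus strand) holds 3. Ndufaf1 (chr2:119662835-119662954, minus strand) and Ndufb6 (chr4:40279422-40279541, minus strand) hold none in these windows. Capitals mark the matches, on either strand.
Ndufaf4: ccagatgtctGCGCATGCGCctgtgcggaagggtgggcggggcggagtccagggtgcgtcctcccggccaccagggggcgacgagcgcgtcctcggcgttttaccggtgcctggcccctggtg
Ndufs6: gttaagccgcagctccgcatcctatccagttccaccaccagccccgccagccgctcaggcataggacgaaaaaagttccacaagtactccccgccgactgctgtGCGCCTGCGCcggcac
Atp5h: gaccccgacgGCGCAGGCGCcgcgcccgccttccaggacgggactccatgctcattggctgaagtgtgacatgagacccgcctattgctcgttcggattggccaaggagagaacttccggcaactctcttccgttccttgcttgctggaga
Sdha: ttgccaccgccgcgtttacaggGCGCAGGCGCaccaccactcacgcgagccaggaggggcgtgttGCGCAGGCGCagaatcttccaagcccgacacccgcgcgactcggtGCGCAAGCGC
Ndufaf1: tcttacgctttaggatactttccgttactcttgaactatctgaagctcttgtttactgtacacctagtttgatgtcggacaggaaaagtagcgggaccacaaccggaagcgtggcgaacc
Ndufb6: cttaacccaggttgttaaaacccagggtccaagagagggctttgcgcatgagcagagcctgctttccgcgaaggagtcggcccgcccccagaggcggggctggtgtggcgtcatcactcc

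Matches were spread unevenly over the complexes, with 8 of 38 windows in complex I, 2 of 3 in complex II, 1 of 5 in complex III, 1 of 12 in complex IV and 6 of 15 in complex V. The YY1 core, searched likewise, was found in 10 of the 73 members (13.7%) against 3.77% of measured genes with a window, and the ETS core bound by GABP in 5 (6.85%) against 6.01%. Atp5h held the ETS core as well as the NRF1 core, and Ndufs6 the YY1 core. The median GC content was 58.0% in the member windows and 52.7% in all windows. These matches describe letters, not binding.

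Both floxed genes were lower in every CRE array. Signals are given throughout as deposited log2 values, listed for arrays 1, 2 and 3 of a group, and a difference is the CRE mean minus the ERT mean on this scale. Spry1 read 9.04, 9.25 and 9.11 in ERT and 8.35, 8.41 and 8.11 in CRE, a difference of -0.84 (standard error, SE, 0.0885; adjusted p = 0.00462). Spry2 read 8.57, 8.37 and 8.33 in ERT and 7.29, 7.27 and 7.51 in CRE, a difference of -1.06 (SE 0.0874; adjusted p = 0.00162). Which exons their probes cover was not analysed here. Adjusted p-values come from limma's moderated test corrected over the 19938 genes by the Benjamini-Hochberg method. A gene is called lower or higher below 0.05. An exact permutation test of 3 arrays against 3 cannot go below 0.1.

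The arrays resembled each other closely, with correlations over all probes between 0.992 and 0.997, but they did not sort by group. ERT 1 correlated best with CRE 1 (0.9931), and at 0.9923 with ERT 2 and 0.9930 with ERT 3. ERT 2 and ERT 3 correlated at 0.9971 with each other and at 0.9952 to 0.9957 with CRE 2 and CRE 3. Array ERT 1 had the highest median signal, 7.81, where the others lay between 7.73 and 7.77. Of 9 pre-B markers 8 were measured, with mean signals of 12.7 to 12.8 on every array and none called. Their differences were negative in 4 and positive in 4. Rag1 was lower at an unadjusted p under 0.05, with all CRE arrays below all ERT arrays (difference -0.31; adjusted p = 0.138). Ebf1 had all CRE arrays above all ERT arrays (difference 0.07; adjusted p = 0.531). Of 13 mast cell markers 12 were measured and all 12 had positive differences, with a median of 0.92 and 3 called higher, Tpsb2, Tpsab1 and Mcpt2. With single arrays left out, 0.155% to 0.943% of all genes were called higher. The count of mast cell markers called was then 2 without ERT 1, 1 without ERT 2, ERT 3 or CRE 3 and 6 without CRE 2. The mean signal of these markers was 7.55 to 8.07 in ERT and 8.33 to 9.46 in CRE arrays, and 1 of the 12 lay below every array's median. The part of this difference in the results below was not tested. Of the markers of other myeloid cells (8 of 9 measured), fibroblasts (5), T cells (4) and erythroid cells (1 of 3), 0 were called in either direction by limma, and at an unadjusted p under 0.05 Lyz2 and Itgam were higher and Cd4 was lower. Lyz2, lysozyme of granulocytes and macrophages, read 8.56, 8.91 and 8.42 in ERT and 9.05, 10.12 and 9.90 in CRE, with all CRE arrays above all ERT arrays (difference 1.07; SE 0.246; adjusted p = 0.0651). It was called higher under 6 of 16 alternatives, among them without CRE 1 (adjusted p 0.00559 to 0.233 over the alternatives). Of the 8 other myeloid markers, 7 lay below every array's median. In such bulk RNA, fewer cells of a type and less RNA per cell cannot be told apart.

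Oxidative phosphorylation genes were on the whole slightly lower in CRE cells, and few differences passed the test. The median difference over the 89 members was -0.08, with quartiles of -0.15 and -0.01, against -0.03 over all genes, with quartiles of -0.10 and 0.03. Differences were negative for 68 members (76.4%), against 63.1% of all genes. The test called 3 members lower (3.37%), Ndufaf1, Ndufb6 and Ndufaf4, against 1.12% of all genes. It called 0 members higher, against 0.797% of all genes. At an unadjusted p under 0.05, 22 members were lower and 1 was higher, against 2560 lower and 1045 higher among the 19938 genes.

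The groups separated without overlap more often than they passed the test. In 28 members (31.5%) every CRE array lay below every ERT array, against 18.2% of all genes. In 1 member, Cox6b2, every CRE array lay above every ERT array, against 6.59% of all genes. The groups overlapped in the remaining 60. Differences were small: 49 members lay within 0.1 of 0 and 11 exceeded 0.2 in size, while the SE of a member's difference ranged from 0.0487 to 0.137.

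The count of members called lower moved when single arrays were left out. Without ERT 1, ERT 2, ERT 3, CRE 1 or CRE 3 in turn, Ndufaf1 was the 1 member called lower, and without CRE 2 Ndufaf1 and Ndufb6 were called. Lower calls over all genes fell too, from 1.12% to between 0.0903% (without CRE 3) and 0.557% (without CRE 2). The share of members was 2.25% without CRE 2 and 1.12% without each other array. Centring each array on its median gave 9 members lower. Over all genes the calls split into 223 lower and 159 higher as deposited, 692 and 314 after centring and 334 and 369 after repeated quantile normalization.

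**Figure D1:**
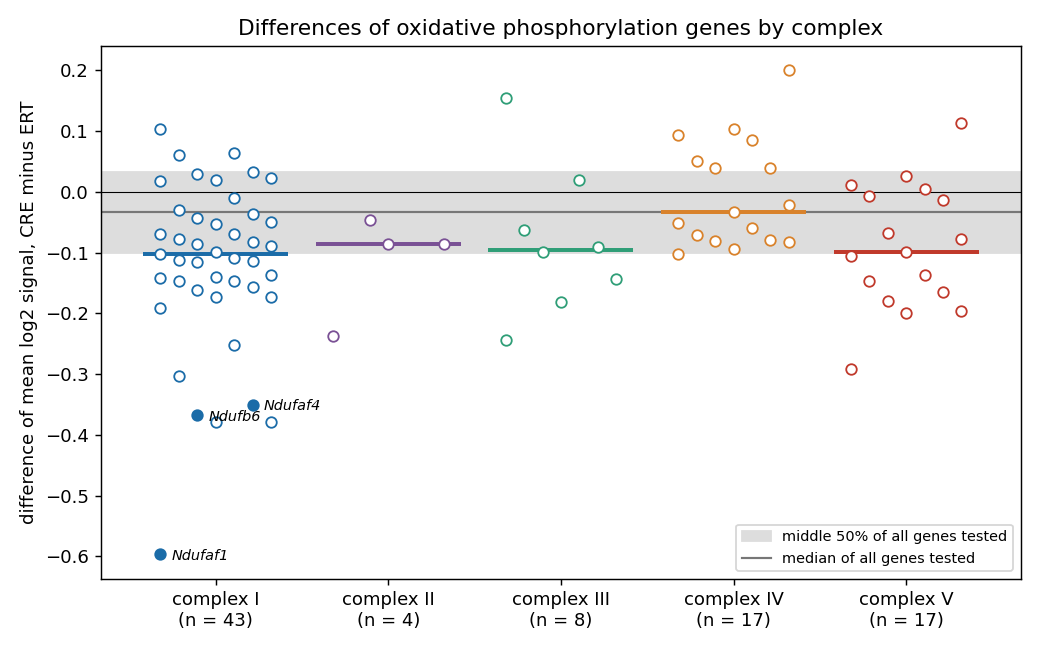
Each point is 1 of the 89 oxidative phosphorylation genes, placed by complex, with the difference of mean log2 signal (CRE minus ERT, 3 arrays each) on the vertical axis; filled points passed an adjusted p of 0.05 and coloured lines are medians. The medians of complexes I, II, III and V lie near -0.1, below the all-gene median of -0.03, and that of complex IV lies on it; the filled points are Ndufaf1, Ndufb6 and Ndufaf4.

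Assembly of complex I gave the largest difference of all members. Ndufaf1, an assembly factor of the complex I membrane arm, read 10.88, 10.93 and 11.05 in ERT and 10.36, 10.38 and 10.32 in CRE. The groups lay 0.501 apart at their nearest arrays. The difference was -0.60 (SE 0.0599; adjusted p = 0.00349), so that the CRE signal was 66.1% of the control signal. It passed the threshold under all 16 alternative settings tried, with adjusted p-values between 0.000561 and 0.0309.

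Ndufaf4, another complex I assembly factor, read 10.12, 9.96 and 9.89 in ERT and 9.59, 9.69 and 9.65 in CRE. All CRE arrays were below all ERT arrays, with ERT 1 the highest. The difference was -0.35 (SE 0.0684; adjusted p = 0.0454), and it passed in 9 of 16 alternatives and in none that left out an array (adjusted p 0.00959 to 0.182 over the alternatives). Of the other assembly factors, Ndufaf2 had a difference of -0.17 (adjusted p = 0.150) without overlap, and Ndufaf5, Ndufaf6 and Ndufaf7 had differences of -0.14, -0.07 and -0.09. Ndufaf3 had a difference of 0.02. The median over the 7 factors was -0.14.

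Among the 29 accessory subunits of complex I, which surround its catalytic core, 23 had negative differences (79.3%, against 63.1% of all genes). The groups separated downwards in 11 (37.9%, against 18.2% of all genes), and 1 was called (3.45%, against 1.12%). That gene was Ndufb6, a subunit of the membrane arm, at 12.96, 12.89 and 12.98 in ERT and 12.59, 12.65 and 12.49 in CRE. Its lowest ERT array lay 0.246 above its highest CRE array. The difference was -0.37 (SE 0.0599; adjusted p = 0.0291), which passed in 10 of 16 alternatives (adjusted p 0.00177 to 0.156).

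Ndufs6, a zinc-binding subunit of the electron-input arm, read 11.19, 11.09 and 11.01 in ERT and 10.85, 10.77 and 10.53 in CRE. Here CRE 3 lay well below the other CRE arrays. The difference was -0.38 (SE 0.0882; adjusted p = 0.0655), as large as that of Ndufb6 but with a wider 95% interval, from -0.58 to -0.18. Ndufa1, a small membrane-arm subunit, had the same difference with still more scatter (-0.38; SE 0.122; adjusted p = 0.141). Ndufa4, named for complex I and since assigned to complex IV, had a difference of -0.30 (adjusted p = 0.0651) without overlap. The largest positive values in complex I belonged to the accessory subunits Ndufa7 (0.10; adjusted p = 0.680) and Ndufb8 (0.06; adjusted p = 0.683). Ndufa7 read 10.29, 9.99 and 9.86 in ERT and 10.22, 10.02 and 10.21 in CRE, and Ndufb8 read 11.42, 11.32 and 11.26 against 11.34, 11.35 and 11.50, so both overlapped.

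The 6 core subunits of complex I in the set belong to its electron-input arm, where most of them bind the flavin or iron-sulphur clusters, and 0 of them were called by limma. Ndufs1, the largest of these iron-sulphur proteins, had a difference of -0.25 (SE 0.0556; adjusted p = 0.0580), with all CRE arrays at 10.97 or below and all ERT arrays at 11.11 or above. Ndufs3 separated the groups with a difference of -0.10. Ndufv1, Ndufv2, Ndufs7 and Ndufs8 overlapped, with differences from -0.15 to 0.02.

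Complex II, which also works in the tricarboxylic acid (TCA) cycle, had 4 of 4 negative differences (against 63.1% of all genes) and 0 calls. Sdhd, a membrane anchor, read 11.57, 11.88 and 11.77 in ERT and 11.33, 11.70 and 11.47 in CRE, a difference of -0.24 (SE 0.107; adjusted p = 0.290). Arrays 1 were the lowest of both groups for this gene, and the groups overlapped. The iron-sulphur subunit Sdhb read 11.77, 11.68 and 11.62 against 11.59, 11.63 and 11.60 (difference -0.09; adjusted p = 0.483). Sdha, the flavoprotein whose upstream stretch held 3 NRF1 cores, had a difference of -0.09 (adjusted p = 0.472), and the anchor Sdhc one of -0.05.

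In complex III, 6 of 8 members had negative differences, against 63.1% of all genes. The groups separated downwards in 3 of the 8, against 18.2% of all genes, and 0 were called, against 1.12% called lower. Uqcrfs1, the Rieske iron-sulphur protein, read 10.23, 10.10 and 10.17 in ERT and 9.99, 9.94 and 9.84 in CRE, with a difference of -0.24 (SE 0.0624; adjusted p = 0.0843). The core protein Uqcrc2 separated the groups at -0.14 and its partner Uqcrc1 overlapped at -0.06. Uqcrq, a small ubiquinone-binding subunit, read 11.25, 11.11 and 10.88 against 10.88, 10.96 and 10.85 (difference -0.18; adjusted p = 0.343). Positive values belonged to 2 small subunits. Uqcr11 read 11.14, 11.00 and 10.84 in ERT and 11.32, 11.00 and 11.13 in CRE (difference 0.16; adjusted p = 0.462), and Uqcrb read 13.36, 13.40 and 13.40 against 13.39, 13.44 and 13.39 (difference 0.02; adjusted p = 0.881).

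By its median, complex IV stood at the level of all genes. In 0 of its 17 members did all CRE arrays lie below all ERT arrays, against 18.2% of all genes, and 0 were called by limma. The differences were negative in 10 (58.8%, against 63.1% of all genes), and their median was -0.03. The sign of this median was not stable: it was 0.0047 without ERT 1, 0.001 without both arrays numbered 1 and 0.0012 with array weights. Complexes I, II, III and V kept negative medians under every setting tried. Were Ndufa4 counted in complex IV, that complex would hold 1 member with all CRE arrays below all ERT arrays. The difference between complex IV and the rest was not tested, since members are not replicates.

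The widely expressed forms of complex IV subunits lay close to 0. Cox5b, a zinc-binding subunit, had the most negative value, at 13.45, 12.95 and 13.27 in ERT and 13.35, 12.93 and 13.09 in CRE (difference -0.10; SE 0.137; adjusted p = 0.759). Its spread within each group exceeded its difference. Cox6a1 read 12.20, 12.04 and 11.91 against 11.92, 11.96 and 12.00 (difference -0.09; adjusted p = 0.582). Cox4i1, the regulatory subunit that binds ATP, read 11.40, 11.26 and 11.23 in ERT and 11.24, 11.22 and 11.18 in CRE (difference -0.08; 95% interval -0.22 to 0.06; adjusted p = 0.539). In these 3 genes the groups overlapped. Cox7a2 was nearly flat, at 11.85, 11.85 and 11.85 against 11.81, 11.85 and 11.83 (difference -0.02; interval -0.13 to 0.09; adjusted p = 0.863). Cox8a read 12.92, 12.76 and 12.77 against 12.81, 12.86 and 12.90 (difference 0.04; interval -0.10 to 0.18; adjusted p = 0.790). Cox6b1, which lies between the monomers of the enzyme, read 12.78, 12.60 and 12.58 against 12.68, 12.68 and 12.76 (difference 0.05; interval -0.10 to 0.20; adjusted p = 0.751).

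Several complex IV subunits have second forms known from heart and muscle, lung or testis. Cox6b2, the testis form of Cox6b1, read 7.59, 7.44 and 7.55 in ERT and 7.76, 7.71 and 7.73 in CRE, and was the 1 member in which all CRE arrays were above all ERT arrays (difference 0.20; SE 0.0584; adjusted p = 0.111). Its signal was below the median of every array. Cox4i2, the lung form, read 8.25, 8.37 and 8.48 against 8.40, 8.48 and 8.54 (difference 0.10; adjusted p = 0.503). The muscle form Cox7a1 read 8.97, 8.999 and 8.79 against 8.93, 8.97 and 9.14 (difference 0.09; adjusted p = 0.592), and the muscle form Cox6a2 read 8.27, 8.49 and 8.32 against 8.27, 8.35 and 8.27 (difference -0.06; adjusted p = 0.716). Apart from Cox6b2, the groups overlapped in each of these forms. Cox8b, at 7.29, 7.15 and 7.24 against 7.13, 7.16 and 7.14, and Cox8c, at 7.68, 7.46 and 7.55 against 7.39, 7.68 and 7.47, lay below every array's median, with differences of -0.08 (adjusted p = 0.513) and -0.05 (adjusted p = 0.811). Cox7a2l, which joins complexes III and IV into supercomplexes, read 10.29, 10.19 and 10.15 against 10.18, 10.08 and 10.16 (difference -0.07; adjusted p = 0.592), and its dimmer probe gave -0.17. Below every array's median lay 5 members in all, and 1 of them, Cox7b2, was below every lower quartile.

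Complex V had 13 of 17 negative differences (76.5%, against 63.1% of all genes) but 0 calls. In 9 members (52.9%) the groups separated downwards, against 18.2% of all genes. The rotary head and central stalk (F1) and the peripheral stalk made up 7 of these 9. Atp5a1 and Atp5c1, the alpha and gamma subunits of F1, had differences of -0.18 (adjusted p = 0.116) and -0.16 (adjusted p = 0.131), and Atp5e, the epsilon subunit, -0.20 (adjusted p = 0.140). Atp5b, the catalytic beta subunit, stood at 0.0046 (95% interval -0.11 to 0.12) and overlapped. Atp5d, the delta subunit, separated the groups by array order with a difference of only -0.01.

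Atp5h, subunit d of the peripheral stalk, read 13.00, 12.94 and 13.00 in ERT and 12.75, 12.82 and 12.77 in CRE. Both groups were tight, and the difference was -0.20 (SE 0.0520; adjusted p = 0.0868). Its other 2 probes gave -0.21 and -0.23. The other stalk subunits Atp5pb, Atp5j and Atp5o had differences of -0.15, -0.14 and -0.10. Atp5mpl, a small membrane subunit, read 12.14, 12.02 and 11.92 in ERT and 11.75, 11.75 and 11.71 in CRE (difference -0.29; SE 0.0665; adjusted p = 0.0627).

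In the other small membrane subunits the groups overlapped. Atp5k, subunit e of the dimer interface, read 10.23, 10.10 and 9.94 in ERT and 10.20, 10.18 and 10.24 in CRE (difference 0.11; adjusted p = 0.479). The c ring, through which protons pass, is encoded by 3 genes for the same mature protein. Atp5g1 read 13.36, 13.20 and 13.23 against 13.26, 13.25 and 13.35 (difference 0.03; 95% interval -0.11 to 0.17; adjusted p = 0.870). Atp5g2 read 13.20, 13.12 and 13.00 against 13.07, 13.00 and 13.05 (difference -0.07; adjusted p = 0.641), and Atp5g3 read 13.21, 13.13 and 13.16 against 13.04, 13.12 and 13.11 (difference -0.08; adjusted p = 0.498). Of these, Atp5g3 alone had all CRE arrays below all ERT arrays, and the 3 genes differed in sign, though the sign of Atp5g1 turned without ERT 2 or CRE 3. Members of such families and their processed copies can share probe sequence, and what the probes cover was not analysed here.

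**Figure D2:**
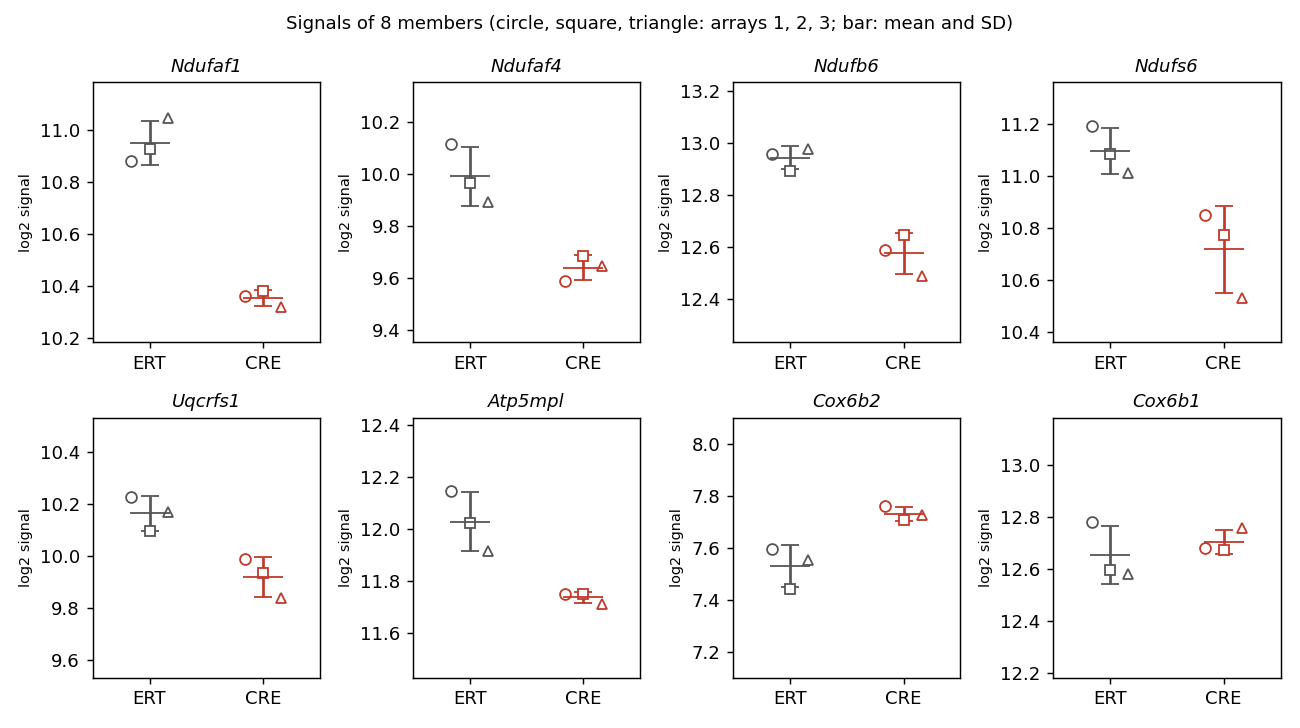
Log2 signals of 8 members in ERT and CRE arrays (circle, square and triangle are arrays 1, 2 and 3; bars are the mean and SD), each panel spanning 1 log2 unit. The groups are apart in the 3 called genes and in Ndufs6, Uqcrfs1 and Atp5mpl, apart in the opposite direction in Cox6b2, and overlapping in Cox6b1.

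Probe choice changed little among members with several probes. These were 17 genes with 25 further probes, of which 23 had the sign of the probe used and 0 were called. The opposite signs were a probe of Ndufa11 (-0.07 against 0.03) and a probe of Uqcrb (-0.04 against 0.02).

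Member signals were uneven over the ERT arrays and nearly even over the CRE arrays. ERT 1 was the highest of the 6 arrays for 60 of the 89 members (67.4%), and for 47.4% of all genes. The mean deviation of a member from its own 6-array mean was 0.11, 0.03 and -0.0023 in ERT 1, 2 and 3 and -0.04, -0.04 and -0.05 in CRE 1, 2 and 3. The same values over all genes were 0.07, -0.01 and -0.02 in ERT and -0.02, -0.01 and -0.01 in CRE. Members thus lay above the all-gene value in each ERT array and below it in each CRE array. Without ERT 1 the median difference of the members was -0.05 against -0.0065 over all genes, and without both arrays numbered 1 it was -0.04 against -0.0034.

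**Figure D3:**
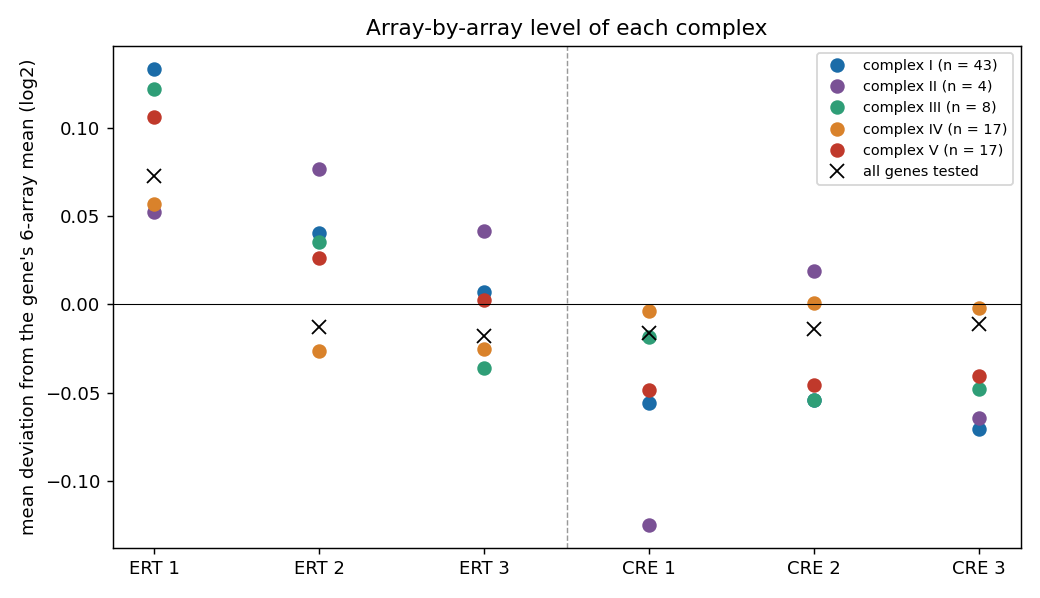
Mean deviation of the members of each complex from their own 6-array means (log2), by array, with all 19938 genes as crosses. ERT 1 lies highest for all complexes but complex II, and complex IV stays within 0.06 of 0 in every array.

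**Figure D4:**
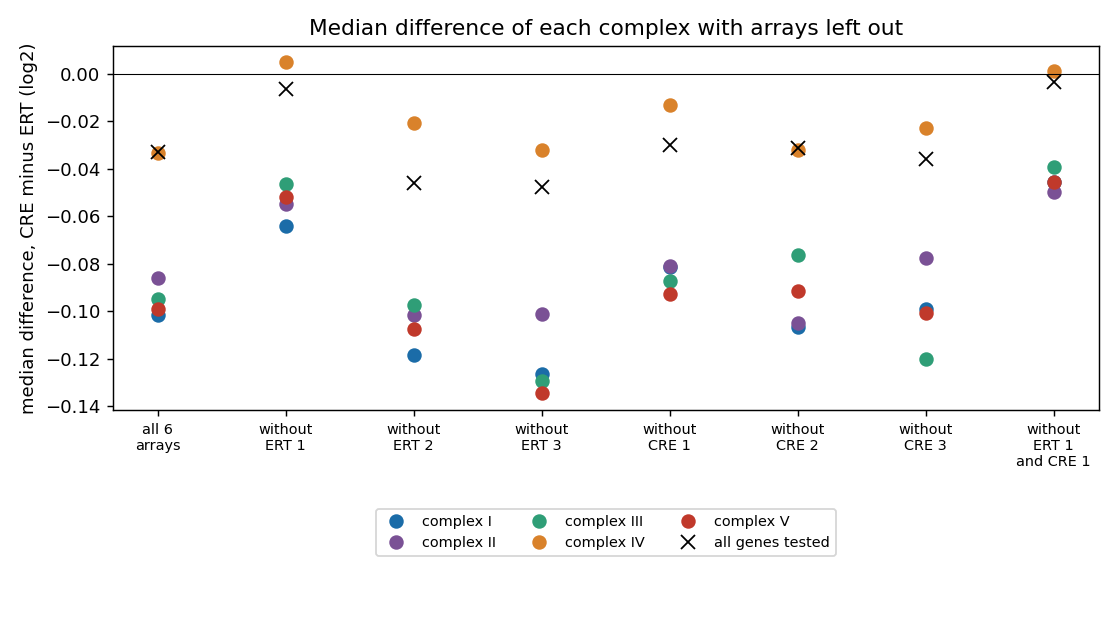
Median difference (CRE minus ERT, log2) of each complex and of all genes with all 6 arrays and with arrays left out. Leaving out ERT 1 moves every median towards 0, and complex IV then passes 0, while complexes I, II, III and V stay below the all-gene crosses in every column.

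By promoter, the 18 members with an NRF1 core had a median difference of -0.14, and 16 of them were negative. The 55 with a window but no NRF1 core had a median of -0.08, and 38 were negative. Ndufaf4, Ndufs6 and Atp5h, whose stretches are printed above, belong to the former and Ndufaf1 and Ndufb6 to the latter, so the called genes stood on both sides. The other 2 cores gave nearly equal medians. With the YY1 core the median was -0.09 (6 of 10 negative), and without it -0.09 (48 of 63 negative). With the ETS core it was -0.10 (3 of 5 negative), and without it -0.09 (51 of 68 negative). Differences of genes outside the members that hold these cores were not analysed. These are descriptions over genes, with no test.

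Genes that support the same machinery were read from lists outside the name rule. Of 39 listed assembly factors 35 were measured, and 32 had negative differences (91.4%, against 63.1% of all genes). The test called 2 lower (5.71%, against 1.12% of all genes) and 0 higher, and the median was -0.12. Lrpprc, which stabilises mitochondrial messenger RNAs, read 11.48, 11.38 and 11.37 in ERT and 11.10, 11.15 and 11.05 in CRE (difference -0.32; adjusted p = 0.0369). Acad9, a complex I assembly factor that works with Ndufaf1 and Ecsit, read 10.37, 10.26 and 10.30 against 9.97, 10.08 and 10.02 (difference -0.29; adjusted p = 0.0482). Sdhaf4, which helps to mature the Sdha protein, had a difference of -0.47 (SE 0.0998; adjusted p = 0.0539), but -0.17 as the mean of all its probes (adjusted p 0.00411 to 0.22 over the alternatives). Ecsit itself had one of -0.10 and overlapped. With any 1 of the 6 arrays left out, 0 of these 35 were called, where 0.0903% to 0.557% of all genes were called lower.

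The TCA cycle and pyruvate dehydrogenase, which supply the chain with NADH and succinate, had the most negative median of these lists, -0.19 over 15 of 16 listed genes. In 12 of the 15 (80.0%) all CRE arrays lay below all ERT arrays, against 18.2% of all genes. The share called lower was 13.3%, against 1.12% of all genes. The 2 called lower were Dld, the shared E3 subunit of the 2-oxoacid dehydrogenases, at 11.00, 10.95 and 11.01 against 10.60, 10.73 and 10.61 (difference -0.34; adjusted p = 0.0317), and Fh1, fumarate hydratase, at 12.31, 12.28 and 12.30 against 11.98, 12.07 and 11.95 (difference -0.30; adjusted p = 0.0378). Pdhb, a subunit of pyruvate dehydrogenase, had a difference of -0.24 (adjusted p = 0.0608). Citrate synthase (Cs) and Ogdh overlapped at -0.02 and 0.0015. Without CRE 2, 1 of these genes was called, where 0.557% of all genes were called lower. Without any other single array 0 were called, where 0.0903% to 0.316% of all genes were called lower.

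Of 20 listed regulators of mitochondrial gene expression 18 were measured, and 17 had negative differences (94.4%, against 63.1% of all genes). Their median was -0.05, against -0.03 over all genes, and 1 was called lower (5.56%, against 1.12% of all genes). Tfam, which packages mitochondrial DNA and helps to start its transcription, was called lower (difference -0.33; adjusted p = 0.0405). It read 10.32, 10.19 and 10.26 in ERT and 9.86, 10.01 and 9.91 in CRE. Its call was lost when any 1 array was left out, where 0.0903% to 0.557% of all genes were called lower. Gabpa, the DNA-binding subunit of GABP, had a difference of -0.19 (adjusted p = 0.0872) without overlap, and Tfb1m, a mitochondrial ribosomal RNA methyltransferase, one of -0.21 (adjusted p = 0.144). Nrf1 and Yy1 themselves overlapped at -0.06 and -0.0013. Esrra was the 1 regulator with a positive difference (0.17; adjusted p = 0.169), and all its CRE arrays lay above all its ERT arrays.

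Of the remaining chain parts 8 were measured, 0 were called by limma in either direction, and 2 had an unadjusted p under 0.05, both lower. Etfdh, which feeds electrons from fatty acid oxidation to ubiquinone, had a difference of -0.21 (adjusted p = 0.0999). Cyct, the testis cytochrome c, had one of -0.25 (adjusted p = 0.131) at a signal below every array's lower quartile, and Dhodh, which links pyrimidine synthesis to the chain, one of -0.13 (adjusted p = 0.483). The list held 2 genes of the mitochondrial genome, which are named after their values were seen. COX2, a catalytic subunit of complex IV, read 13.91, 13.95 and 13.92 in ERT and 14.02, 13.99 and 13.98 in CRE (difference 0.07; adjusted p = 0.539), with all CRE arrays above all ERT arrays. ND3, a membrane subunit of complex I, had a difference of 0.03 (adjusted p = 0.799) and overlapped. Both differences were positive under all 16 alternatives.

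**Figure D5:**
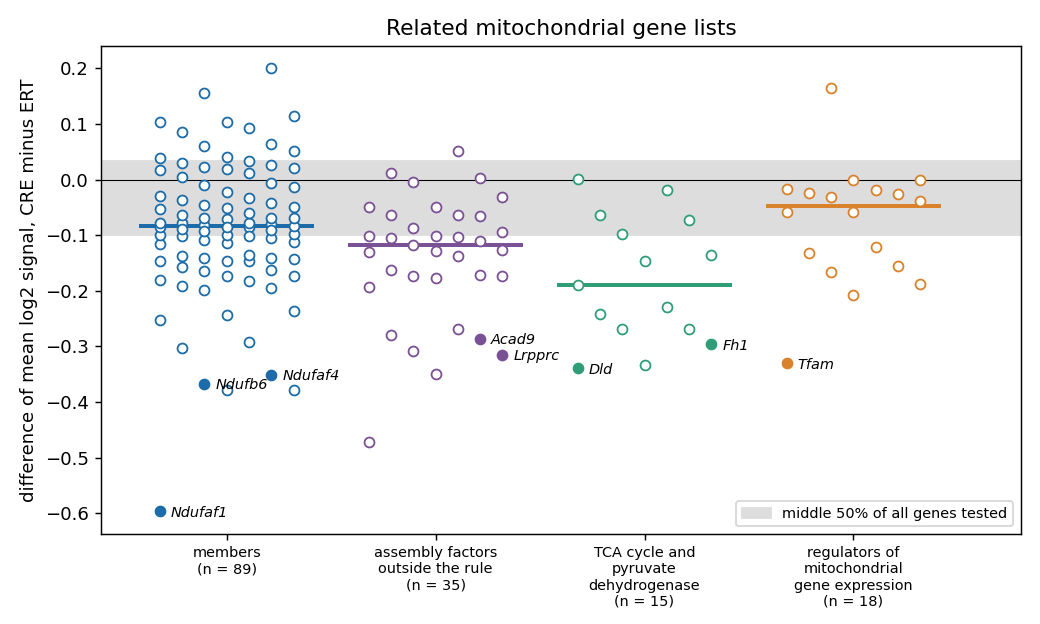
Differences of mean log2 signal (CRE minus ERT) for the 89 members and for 3 related lists; filled points passed an adjusted p of 0.05, coloured lines are medians and the grey band holds the middle 50% of all genes. The TCA cycle list has the most negative median, -0.19, and 14 of its 15 points lie below 0.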

How the data were processed

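The authors deposited log2 expression values for 35556 probes of 6 Affymetrix arrays, between 2.47 and 14.8. Per the submitters' processing notes, RMA and Partek 6.5 were used, in an unstated order, and what else was done is not given in the sources used here. Values were used as deposited. Of the probes, 21789 name 1 gene in the platform annotation, 1621 several and 12146 are unnamed here. The brightest single-gene probe stood for each gene, which left 19938 genes, and 6 probes naming several genes that matched the rule were left out. The 2 groups were tested by limma 3.58.1 (lmFit, eBayes; R 4.3.3), which was checked on simulated data. Since separate cultures are not stated, a p-value reflects the spread among arrays alone, possibly technical. The number of arrays limits the precision, and the median SE was 0.0656.

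Full values are given for members past an adjusted p of 0.05, for the 2 most negative and 2 most positive of each complex and for isoform sets. Up to 3 genes with the lowest p-values are named per related list. Ecsit, Cs, Ogdh, Nrf1, Yy1, Esrra, Rag1, Ebf1, Lyz2, Itgam, Cd4 and the called mast cell markers were named after their values were seen. The members and lists were chosen with earlier results of these data known. Alternatives covered scaling, a filter at the 40th percentile of mean signal, probe choice, variance model, array weights, the replicate block and arrays left out.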

Additional observations from a re-analysis of the deposited data

How the results depend on the processing

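The number of members called lower, 3 as reported, was 9 with arrays centred on their medians, 9 with dim genes left out (86 members kept, without Cox7b2, Cox8b and Ndufa4l2), 14 with an intensity trend, 11 with array weights, 1 to 2 with each array left out in turn and 1 without both arrays numbered 1. It was 1 over subunits only (1.25%, against 1.12% of all genes). At a threshold of 0.01 it was 1 and at 0.1 it was 9, and the all-gene shares at these thresholds are not given here. The count stayed at 3 with repeated quantile normalization, the mean of all probes, every probe tested and robust variance. Where more members were called, lower calls rose over all genes as well. As reported they were 1.12% of all genes, against 3.37% of members. Centring gave 3.47% against 10.1%, and leaving out dim genes 6.61% against 10.5%. An intensity trend gave 4.12% against 15.7%, and array weights 5.43% against 12.4%. With single arrays left out, lower calls fell to between 0.0903% and 0.557% of all genes, against 1.12% to 2.25% of members. Without both arrays numbered 1 they were 0.216% against 1.12%. Members called higher numbered 1, Cox6b2, with array weights, where 3.83% of all genes were higher, and 0 under the other alternatives. The median difference was negative under every alternative and moved most without both arrays numbered 1, to -0.039.

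With the replicate number as a replicate block, 6 members were called lower, and 285 genes lower and 296 higher. With this block 10 of the 12 mast cell markers were called higher, against 3 as reported, and 1.48% of all genes. The labels do not say what a number marks. Deviations of arrays sharing a number correlated at 0.268, 0.336 and 0.0282, and of arrays with different numbers between -0.328 and 0.0442. Arrays numbered 1 and 2 thus correlated best with the array of their own number. ERT 3 correlated best with CRE 1 (0.0304), and CRE 3 with ERT 2 (0.0442). Whether the numbers mark pairs was not settled, and the main fit did not pair the arrays.

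Over all 89 members, 20 had a sign that turned under at least 1 alternative. Among those that the naming rule chose (called members, extremes of each complex and isoform sets), signs turned for 6. Leaving out each array in turn gave -0.0036 to 0.074 for Atp5g1, -0.24 to 0.010 for Cox5b, -0.10 to 0.0063 for Cox6a2 and -0.13 to 0.0090 for Cox8c. Array weights gave 0.015 for Cox5b and 0.0056 for Cox8c. Quantile normalization gave 0.030 for Cox7a2. Without both arrays numbered 1, Cox6a1 gave 0.00095 and Cox8c 0.065. The cause was not tested. Alternatives for Spry1, Spry2 and the related lists were chosen after seeing the data.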
